A study of Paralichthys olivaceus with 24 samples.

Results

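In the spleen of a marine flatfish, the Japanese flounder (Paralichthys olivaceus), 199 array probes were chosen by their values at 24 h. Their mean deposited values differed in opposite directions between poly(I:C) and water in fish kept at 15 °C and at 25 °C. The probes were selected from 13026 contig probes that passed the background filter, out of 14052 contig probes and 14481 probes in all. A probe was selected if the mean of the poly(I:C) arrays minus that of the water arrays, in the deposited log2 values, was at least 0.7 in size at 24 h at both temperatures, with opposite signs, and was below 1 in size at 3 h and 15 °C. Of the 199 probes, 164 were higher with poly(I:C) at 15 °C and lower with it at 25 °C, and 35 had the reverse order. These 3 differences chose the probes and are therefore given as a description, with no test. Of the 164 probes, 105 had no water array well above background at 24 h and 15 °C, and no slide held both groups there. The arrays at 3 h and 25 °C entered the choice only through the background filter, and the response there was tested.

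Poly(I:C) is a synthetic RNA duplex that stands in for viral RNA. In vertebrates such RNA is sensed by Toll-like receptors in endosomes and by RIG-I-like helicases in the cytosol, and both routes lead to interferons and to the genes that interferons induce. The spleen of teleost fish filters the blood, holds B cells, macrophages and other immune cells, and also contributes to blood formation. Fish do not hold a constant body temperature, so the temperature of the water sets that of their immune cells.

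The fish received poly(I:C) or DEPC-treated water and were kept at 15 °C or 25 °C until total RNA of the spleen was taken at 3 h or 24 h. The 8 combinations of treatment, temperature and time had 3 one-colour (Cy3) arrays each, 24 in all. The labels give no strain, age or dose. They do not state whether the 3 arrays of a group came from different fish, so a p-value reflects only how these samples varied, and that variation may be technical. In whole spleen, fewer cells of a type and less RNA per cell cannot be told apart.

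Signals below are log2 values relative to the 75th percentile of the array, so that 0 is the level below which 75% of probes lay. The files name each target by a contig code and pair none with a gene, and 0 of the 199 contig codes matched the RefSeq gene table of assembly ASM2471397v2. The labelled tissue could therefore not be checked against marker genes. For the same reason few probes are named: within each direction those with the largest reversal, the largest differences and the highest signal, and those that changed most at 3 h and 25 °C. A probe is called well above background where Feature Extraction marks its spot so on an array.

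The directions differed in brightness. The 164 probes were mostly dim, with a median at the 7.34th percentile of mean signal among the 13377 tested probes (range 0.067 to 96.4). The 35 probes had a median at the 56.3rd percentile (range 4.21 to 90.6). Of the 164 probes, 34 (20.7%) were well above background on all 12 arrays at 24 h, against 24 of the 35 probes (68.6%) and 80.8% of all tested probes. In water at 24 h and 15 °C, 105 of the 164 probes were not well above background on any array. With poly(I:C) at 24 h and 25 °C, 28 were not, and in water at 24 h and 25 °C, 8 were not. For the 105 dim probes the difference at 24 h and 15 °C is only a bound: poly(I:C) was above the detection limit of the water arrays for 47 of them, and for 15 the bound itself reached 0.7 log2. The largest such bound was at least 4.74-fold. At 24 h and 25 °C 7 of the 164 had no array above background in either group, so their difference was not measured. Another 22 had no such array in 1 of the groups. The brighter group was above the detection limit of the other for 14 of these, and for 4 the bound reached 0.7 log2.

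The share of all probes well above background moved with this direction. It was 78.4% to 83.9% on the water arrays and 83.7% to 94.2% on the poly(I:C) arrays at 24 h and 15 °C. In the 25 °C groups at 24 h it was 90.3% to 95.0% on the water arrays and 86.1% to 91.1% on the poly(I:C) arrays. The part of this detection difference in the reversal of the 164 probes was not tested. The 34 probes above background on all 12 arrays at 24 h had median differences of 1.23 log2 at 15 °C and -0.88 at 25 °C, and the other 130 had 1.03 and -0.92. The same thresholds chose both sets, and nothing is read from their likeness.

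Slides moved with the groups as well. Poly(I:C) at 24 h and 15 °C lay on slide 1 and water at 24 h and 15 °C on slide 2, so no slide held both groups. Of the 25 °C groups at 24 h, all 3 water arrays and 2 poly(I:C) arrays lay on slide 3, and 1 poly(I:C) array on slide 2. That poly(I:C) group alone linked slides 2 and 3. Slides 1 and 2 were linked only by water at 3 h and 15 °C, with 2 arrays on slide 1 and 1 on slide 2. Each term of a slide block thus rests on 1 array against 2 of a group that the rule also used. With the slide as a block, the median difference of the 164 probes at 24 h and 15 °C was 0.68 (median SE 0.71) in place of 1.05 (median SE 0.42), and 135 of 164 kept its sign. For the 35 probes it was -0.78 (median SE 0.48) in place of -1.05 (median SE 0.27), and 33 kept the sign. Within slide 3 the difference at 24 h and 25 °C had a median of -0.86 for the 164 probes and 1.11 for the 35 probes, with the sign of the full group in all 199. The selection rule favours that sign, and nothing is read from it.

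The 164 probes had a median difference of 1.05 log2 at 24 h and 15 °C (range 0.71 to 4.52) and of -0.91 at 24 h and 25 °C (range -2.07 to -0.70). With each undetected group at its bound the medians were 0.43 and -0.87. The measured difference exceeded 2 log2 in size for 13 of them at 15 °C, but 11 of these had no water array above background and the bound of only 1 of the 11 reached 2 log2. Their arrays did not overlap between poly(I:C) and water for 114 of 164 at 15 °C (26.6% of all tested probes were higher without overlap there) and for 109 at 25 °C (28.1% were lower without overlap). For 77 they overlapped at neither temperature. Of all tested probes 5.43% had opposite differences without overlap, a share that counts both directions and includes the selected probes. Since the rule chose on these differences, the counts describe the spread only.

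Probe CUST_8528_PI426483990 (contig JFC28712_1_code) had the second largest reversal among the non-overlapping probes of this direction and was well above background on all 24 arrays. At 24 h and 15 °C its log2 signals were -1.15, -0.27 and -0.46 in water and 0.89, 0.36 and 0.88 with poly(I:C), a difference of 1.34. In fish at 25 °C they were -1.05, -1.60 and -1.05 in water and -3.02, -2.58 and -2.46 with poly(I:C), a difference of -1.45. The groups did not overlap at either temperature, and the poly(I:C) arrays at 24 h were the highest of the 8 groups at 15 °C and the lowest at 25 °C. At 3 h and 25 °C its change was 0.30 (SE 0.27, limma adjusted p = 0.377).

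Probe CUST_12489_PI426483990 (contig JFC10155_1_code) had the largest reversal by measured signal among the non-overlapping probes but lay near background. At 24 h and 15 °C its log2 signals were -5.48, -6.49 and -6.61 in water, where no array was well above background, and -4.23, -4.18 and -4.26 with poly(I:C), which is at least 1.17-fold higher. In the 25 °C fish at 24 h they were -4.81, -4.98 and -5.74 in water, with 1 array above background, and -5.98, -7.11 and -7.09 with poly(I:C), with none. The measured difference of -1.55 there has no fold that the signals bear out.

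By measured signal, the largest differences at 24 h and 15 °C among non-overlapping probes were those of CUST_3910_PI426483990 (contig JFC05856_1_code) and CUST_2718_PI426483990 (contig JFC26862_1_code). CUST_3910_PI426483990 had no water array above background there and was at least 3.82-fold higher with poly(I:C), so its place relative to the other is not settled. The signals of CUST_2718_PI426483990 were -3.58, -4.60 and -3.76 in water and -1.16, -1.18 and -1.52 with poly(I:C), a difference of 2.69, with 2 of 3 water arrays above background. Its signals in the 25 °C fish at 24 h were -3.36, -3.86 and -3.51 in water and -4.30, -4.28 and -5.07 with poly(I:C). Its poly(I:C) arrays at 24 h and 15 °C stood above all its other arrays.

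The largest differences at 24 h and 25 °C among the non-overlapping probes were those of CUST_5858_PI426483990 (contig JFC09759_1_code, -1.61) and CUST_6658_PI426483990 (contig JFC09272_1_code, -1.60), each above background on all 3 water arrays and on 1 poly(I:C) array there. In water at 24 h and 15 °C both were not well above background on any of the 3 arrays, and poly(I:C) there was at least 1.19-fold and at least 1.45-fold higher, respectively.

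The brightest of the 164 probes were CUST_7361_PI426483990 (contig JFC11566_1_code) and CUST_8388_PI426483990 (contig JFC11991_1_code), both above background on all 24 arrays. At 24 h CUST_7361_PI426483990 had log2 signals of 3.48, 3.57 and 3.83 in water and 4.44, 4.63 and 4.24 with poly(I:C) at 15 °C, a difference of 0.81. For the 25 °C fish at 24 h they were 3.66, 3.80 and 3.57 in water and 2.91, 2.75 and 2.51 with poly(I:C), a difference of -0.95. The water groups at 24 h overlapped between temperatures, and the poly(I:C) groups lay above them at 15 °C and below them at 25 °C. CUST_8388_PI426483990 had a difference of 1.25 at 24 h and 15 °C, where its water signals were 3.94, 2.91 and 3.68, and of -0.76 at 24 h and 25 °C.

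The 35 probes had a median difference of -1.05 log2 at 24 h and 15 °C (range -1.66 to -0.70). At 24 h and 25 °C it was 0.99 (range -0.13 to 3.58). The lowest value, in CUST_2523_PI426483990, leaves out an outlier spot that the deposited value holds. At 15 °C arrays did not overlap for 29 of 35 (26.1% of all tested probes were lower without overlap). At 25 °C they did not overlap for 25 (12.6% were higher without overlap). For 24 they overlapped at neither temperature, where 5.43% of all tested probes had opposite differences, counting both directions. Of the 24 probes above background on all 12 arrays at 24 h, 22 overlapped at neither temperature. The rule chose on these differences, so these counts too describe the spread only.

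Probe CUST_13189_PI426483990 (contig JFC15206_1_code), above background on all 24 arrays, combined the largest difference at 24 h and 25 °C among the non-overlapping probes of this direction with the highest mean signal. Its log2 signals there were 1.63, 1.62 and 1.80 in water and 3.02, 3.38 and 3.26 with poly(I:C), a difference of 1.53. At 24 h and 15 °C they were 2.16, 2.64 and 2.04 in water and 1.40, 0.79 and 1.03 with poly(I:C), a difference of -1.20. The poly(I:C) group thus had the highest mean of the 8 groups at 24 h and 25 °C and the lowest at 24 h and 15 °C.

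Probe CUST_10783_PI426483990 (contig JFC06408_1_code) was also above background on all 24 arrays. Its log2 signals at 24 h and 25 °C were -0.56, -0.03 and -0.13 in water and 0.89, 1.36 and 1.19 with poly(I:C), a difference of 1.38. At 24 h and 15 °C they were -1.20, -0.43 and -0.77 in water and -1.63, -2.45 and -1.98 with poly(I:C), a difference of -1.22. No array overlapped between treatments at either temperature.

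The largest differences at 24 h and 15 °C among the non-overlapping probes were those of CUST_3722_PI426483990 (contig JFC05157_1_code, -1.66) and CUST_12875_PI426483990 (contig JFC25046_1_code, -1.23). CUST_3722_PI426483990 passed background with poly(I:C) there in 1 of 3 arrays. The signals of CUST_12875_PI426483990 were -0.84, -0.67 and -1.15 in water and -1.96, -2.22 and -2.17 with poly(I:C) at 15 °C, and -1.02, -0.63 and -0.52 in water and -0.10, 0.13 and 0.10 with poly(I:C) at 25 °C. The second brightest probe, CUST_432_PI426483990 (contig JFC20669_1_code), had a difference of -1.18 at 24 h and 15 °C and of 0.73 at 24 h and 25 °C.

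For 5 of the 35 probes the difference at 24 h and 25 °C turned negative without replicate 2 of poly(I:C). They lie outside the naming rule and were singled out after their values were seen. In CUST_5990_PI426483990 (contig JFC22795_1_code) the poly(I:C) signals were -4.61, 4.68 and -1.94, and in CUST_7265_PI426483990 (contig JFC25667_1_code) -5.95, 1.82 and -3.63. CUST_6551_PI426483990 (contig JFC00064_1_code) and CUST_12605_PI426483990 (contig JFC15637_1_code) had 1.52 and 2.49 on that array. Replicate 2 of water at 3 h and 25 °C was likewise the highest array of its group in these 4 probes, at 2.53 in CUST_5990_PI426483990 against -4.07 and -3.37 on the other arrays. In CUST_2523_PI426483990 (contig JFC25334_1_code) the spot on replicate 2 was marked as an outlier by Feature Extraction. Without that array its difference was -0.13, against 0.72 in the deposited table.

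Just inside the limits, 1 probe had 0.91 at 15 °C and -0.70 at 25 °C, and just outside, 1 had 0.6993 at 15 °C and -0.98 at 25 °C. Among the 35 probes the nearest to the limit had -0.70 at 15 °C and 0.90 at 25 °C, and the nearest outside it had -1.91 and 0.69. The limit at 3 h and 15 °C kept a probe with -0.99 and left out a probe with 1.01, and in all it left out 33 probes of the first direction and 1 of the second.

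The level in water itself differed between temperatures in the 164 probes. In water at 24 h they were higher at 25 °C than at 15 °C by a median of 1.38 log2 (151 of 164 higher), and with poly(I:C) at 24 h they were lower at 25 °C by a median of -0.77 (32 of 164 higher). For all tested probes these medians were 0.080 and -0.038. Among the 34 probes above background on all 12 arrays at 24 h the order of sizes was the other way: 0.73 in water (27 of 34 higher) and -1.28 with poly(I:C) (3 of 34 higher). The 35 probes were higher at 25 °C at 24 h with poly(I:C) by a median of 2.16 (35 of 35 higher), against 0.16 in water (21 of 35 higher). In water at 3 h their median was -0.69 (10 of 35 higher at 25 °C). The differences at 24 h use the arrays of the rule. The rule itself sets the temperature difference with poly(I:C) above that in water for the 35 probes and below it for the 164. Nothing is therefore read from that contrast, and none of these differences was tested. Slide 3 held every 25 °C water array and slide 1 every 15 °C poly(I:C) array. Slide and temperature therefore cannot be told apart in these differences, and a block would rest on the same few linking arrays.

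Each probe was set relative to its own mean over the 8 groups, and the median over the probes was taken per array. For the 164 probes this level was -0.70 ± 0.18 (SD, n = 3) in water and 0.47 ± 0.11 (SD, n = 3) with poly(I:C) at 24 h and 15 °C. At 24 h and 25 °C it was 0.61 ± 0.051 (SD, n = 3) in water and -0.37 ± 0.077 (SD, n = 3) with poly(I:C). At 3 h it was -0.30 ± 0.28 in water and -0.36 ± 0.13 with poly(I:C) at 15 °C, and 0.30 ± 0.32 and 0.28 ± 0.14 at 25 °C (SD, n = 3 each). At 3 h the level thus lay lower at 15 °C than at 25 °C with poly(I:C), and in water with more spread, the highest array at 15 °C being -0.026 and the lowest at 25 °C 0.018.

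For the 35 probes the level was 0.14 ± 0.24 in water and -0.84 ± 0.25 with poly(I:C) at 24 h and 15 °C, and 0.33 ± 0.32 and 1.30 ± 0.26 at 24 h and 25 °C (SD, n = 3 each). At 3 h it was 0.37 ± 0.24 in water and 0.016 ± 0.045 with poly(I:C) at 15 °C, and -0.38 ± 0.16 and -0.95 ± 0.31 at 25 °C (SD, n = 3 each). The 34 probes above background on all 12 arrays at 24 h had levels at 24 h of -0.43 ± 0.047 in water and 0.63 ± 0.12 with poly(I:C) at 15 °C, and of 0.44 ± 0.016 and -0.56 ± 0.24 at 25 °C (SD, n = 3 each). The 24 such probes of the other direction had 0.14 ± 0.23 and -0.82 ± 0.25 at 15 °C, and 0.36 ± 0.33 and 1.29 ± 0.19 at 25 °C (SD, n = 3 each). The rule fixed the order of poly(I:C) and water in these 24 h levels. With poly(I:C) at 25 °C the 35 probes ran from the lowest mean level of the 8 groups at 3 h, which overlapped that of poly(I:C) at 24 h and 15 °C, to the highest at 24 h.

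The difference at 3 h and 25 °C, which the rule used only through the background filter, was tested with limma over all 13377 probes. For a dim probe that passed the filter only through these arrays, the test is not independent of the choice. The number of such probes is not given here. Of the 164 probes 29 rose (17.7%), 30 fell (18.3%) and 105 did not pass the test. Of all tested probes 17.7% rose and 29.3% fell, so the share that rose was that of the background and the share that fell was below it. The median change was 0.050 log2, against -0.15 for all tested probes, and 87 changes were positive and 77 negative. Their quartiles were -0.93 and 0.72, against -0.63 and 0.31 for all tested probes. The SD between arrays of a group had a median of 0.54 in the 164 probes against 0.25 in all tested probes.

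The 29 probes that rose at 3 h and 25 °C had a median change of 1.62 log2 as measured. In 15 of them no water array was above background, and with those at their bound the median was 0.97. The level of these 29 probes was -0.37 ± 0.26 in water and 1.23 ± 0.24 with poly(I:C) at 3 h and 25 °C, and 0.085 ± 0.11 in water and -0.98 ± 0.32 with poly(I:C) at 24 h and 25 °C (SD, n = 3 each). With poly(I:C) at 15 °C their level went from -0.24 ± 0.14 at 3 h to 0.95 ± 0.22 at 24 h (SD, n = 3 each). With poly(I:C) these probes were high at 3 h at 25 °C and at 24 h at 15 °C, and below their water level at 24 h at 25 °C. The call fixed the first of these orders and the rule fixed those at 24 h, so nothing is read from this course. At 24 h and 15 °C 17 of the 29 had no water array above background. At 24 h and 25 °C 13 had no poly(I:C) array above background, and 6 had no water array above it.

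The 30 probes that fell there had a median change of -1.55 log2 as measured, and of -1.32 with the 11 that had no poly(I:C) array above background at their bound. Their level was high in water at 25 °C, at 1.10 ± 0.51 at 3 h and 1.23 ± 0.065 at 24 h, and low in water at 15 °C, at -0.45 ± 0.33 and -0.96 ± 0.082 (SD, n = 3 each). With poly(I:C) at 24 h it was 0.089 ± 0.16 at 15 °C and 0.16 ± 0.56 at 25 °C (SD, n = 3 each). At 24 h the water groups of these 30 probes differed between temperatures, and the poly(I:C) groups overlapped. The rule favours high water at 25 °C and low water at 15 °C at 24 h, and the call favours high water at 3 h and 25 °C. In water at 24 h and 15 °C 21 of the 30 were not well above background on any array. Water at 24 h lay on slide 2 at 15 °C and on slide 3 at 25 °C, and nothing is read from the difference. The 3 poly(I:C) arrays at 24 h and 25 °C were at -0.48, 0.57 and 0.39, and the lowest of them was the array on slide 2.

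Probes CUST_6554_PI426483990 (contig JFC01405_1_code) and CUST_3381_PI426483990 (contig JFC23549_1_code) rose most by measured signal at 3 h and 25 °C. The log2 signals of CUST_6554_PI426483990 were -5.59, -6.77 and -6.48 in water and -1.69, -0.81 and -1.71 with poly(I:C), and no water array was above background. It was at least 8.67-fold higher (limma adjusted p = 4.21e-08), and CUST_3381_PI426483990 was at least 11.8-fold higher (limma adjusted p = 1.10e-07). These bounds hold for the main scaling and background only. With normexp background correction, whose offset of 50 makes differences of dim probes smaller, the changes were 1.89 and 1.94 log2. With the slide as a block the change of CUST_6554_PI426483990 was 2.84. Both probes were called each time. At 24 h and 15 °C they were at least 4.74-fold and at least 1.83-fold higher with poly(I:C). At 24 h and 25 °C neither was above background on any water array, and 1 poly(I:C) array of CUST_6554_PI426483990 was, so their lower signal with poly(I:C) there was not measured.

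CUST_7361_PI426483990, the brightest of the 164 probes, rose by 0.52 (SE 0.14, limma adjusted p = 0.00528) at 3 h and 25 °C, from 4.61, 4.54 and 4.82 in water to 5.20, 5.18 and 5.15. With quantile scaling that change was -0.021 and was not called, and with the slide as a block it was 0.25 and was not called. With normexp background correction it was 0.50 and was not called (limma adjusted p = 0.133). CUST_3910_PI426483990 was at least 2.69-fold higher (limma adjusted p = 0.000248), and CUST_12489_PI426483990 rose (limma adjusted p = 0.0183), with no water array and 2 poly(I:C) arrays above background and no fold that the signals bear out. Both calls were lost with the slide as a block and with normexp background correction. That of CUST_12489_PI426483990 was also lost without replicate 2 of poly(I:C) at 3 h and 25 °C (limma adjusted p = 0.0769). It was lost without replicate 1 of water there as well (limma adjusted p = 0.0519). CUST_2718_PI426483990, CUST_5858_PI426483990, CUST_6658_PI426483990 and CUST_8388_PI426483990 did not pass the test.

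Of the 35 probes 16 fell (45.7%) and 1 rose (2.86%) at 3 h and 25 °C, against 29.3% and 17.7% of all tested probes, and 18 did not pass the test. The median change was -0.73 log2, and 30 of 35 changes were negative, against 7883 of 13377. This count of falls depended on the slide term. The compared groups lay on slides 2 and 3, and no slide held both. With the slide as a block 1 of the 35 probes fell and the median change was -0.19 (median SE 0.48). The only group on both slides was poly(I:C) at 24 h and 25 °C, with 1 array on slide 2 and 2 on slide 3. Calls kept or lost with this block at 3 h and 25 °C thus rest on that 1 array against the other 2. All 3 also served to choose the probes. Without replicate 3 of poly(I:C) at 3 h and 25 °C 9 fell, with a median of -0.55. With median scaling 7 fell, with quantile scaling 10, and with normexp background correction 5. Calls in both directions over all tested probes were then 6047, 6114 and 2642. Falls among them are not given apart, so these 3 counts have no background share beside them. With the block 14 of the 164 probes rose and 2 fell, 13 of these 16 being among the 59 called without it, while calls over all tested probes went from 6281 to 2282.

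The probe of the 35 that rose was CUST_13189_PI426483990, from 1.30, 1.19 and 1.09 in water to 1.91, 1.65 and 1.74, a change of 0.57 (SE 0.16, limma adjusted p = 0.00678). With quantile scaling the change was 0.34 and the call was lost (limma adjusted p = 0.110). CUST_5979_PI426483990 (contig JFC12345_1_code) fell most by measured signal and was at least 2.71-fold lower (limma adjusted p = 0.000177), with no poly(I:C) array above background. With normexp background correction its change was -0.80 and the call was lost (limma adjusted p = 0.172). None of its 6 arrays at 24 h and 15 °C stood well above background, so its lower signal with poly(I:C) there was not measured. CUST_12875_PI426483990 fell by 0.84 (SE 0.19, limma adjusted p = 0.00162), CUST_432_PI426483990 by 0.77 (SE 0.21, limma adjusted p = 0.00537) and CUST_10783_PI426483990 by 0.80 (SE 0.27, limma adjusted p = 0.0211). These 3 calls were lost with the slide as a block, at -0.63, -0.54 and -0.43. The call of CUST_10783_PI426483990 was also lost with median scaling, quantile scaling and normexp background correction and without any of 4 single arrays (limma adjusted p from 0.0520 to 0.106). That of CUST_12875_PI426483990 was also lost with normexp background correction (limma adjusted p = 0.0675) and that of CUST_432_PI426483990 with the compared groups fitted alone (limma adjusted p = 0.0566). CUST_3722_PI426483990 had a change of -0.27 and did not pass the test. Among the 164 probes CUST_12561_PI426483990 (contig JFC10958_1_code) fell most by measured signal and was at least 1.98-fold lower (limma adjusted p = 0.000273), with 2 of 3 water arrays and no poly(I:C) array above background. By their bounds other probes fell by more. The largest such bound was at least 3.55-fold, in CUST_12474_PI426483990 (contig JFC26799_1_code, singled out after its values were seen). A called probe among the 34 above background on all 12 arrays at 24 h had a larger fall, of -2.07 log2, which needed no bound. The call of CUST_12561_PI426483990 too was lost with the slide as a block and with normexp background correction.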

How the data were processed

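Total RNA of spleen was hybridised to 24 one-colour Agilent arrays, 3 for each of 8 groups. Per the file headers, the deposited scanner files hold spot intensity from Feature Extraction 10.7.3.1, background-subtracted and not normalised between arrays, whereas the submitters' processing notes give 9.5.3.1. The authors' value table, as deposited, is on a log2 scale. It matched log2 processed signal minus the 75th percentile of the array within 0.02 for 100% of values after centring each probe, and the authors' method and centring value are not given in the sources used here. Its column medians ran from -0.16 to 0.11. The table served to choose the probes. It also gave the values near the limits of the rule and the differences of single probes without replicate 2. For the main results the scanner signals, minus the 75th percentile of each array, gave the other values.

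Outlier spots (2 to 22 an array) were left out and no spot was saturated. Spots of a probe were averaged. Tests covered the 13377 of 14481 probes that at least 1 group showed well above background on each of its 3 arrays. limma 3.58.1 in R 4.3.3 was fitted to all 24 arrays with 8 group means, with Benjamini-Hochberg adjustment over all tested probes and a threshold of 0.05. It was tested on simulated data. The number of arrays limits the precision. Where a group was not above background on any array, a fold is a lower bound against the lowest signal well above background or the probe's own signal, whichever was higher. Array signals at the 75th percentile were 348.1 to 863.5, and arrays of a group correlated at 0.963 to 0.989.

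The probes and lists were chosen with earlier results of these data known. Within each direction, the named probes were the 2 with the largest reversal (smaller of both 24 h sizes), the 2 with the largest difference at each temperature at 24 h, all among probes whose arrays did not overlap (at 24 h at both temperatures), and the 2 with the highest mean signal. To these were added the 2 that rose and the 2 that fell most at 3 h and 25 °C among called, non-overlapping probes. Alternatives were other scaling, background correction, filters, thresholds, slide and replicate blocks and leaving out each array. The normexp correction used the median in place of the planned mean spot signal, which was not used here. It added an offset of 50, which makes log2 differences of dim probes smaller by construction. Of 14478 target names 0 matched the RefSeq table of ASM2471397v2, so the planned gene and cell type lists were not used.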

Additional observations from a re-analysis of the deposited data

How the results depend on the processing

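In place of 164 probes the rule chose 107 with median scaling (104 of them among the 164), 54 with quantile scaling (53), 22 with normexp background correction (17), 74 when above background in at least 4 groups, 34 when above background on all 12 arrays at 24 h (chosen after seeing the data) and 41 at 1 log2. In place of 35 it chose 54, 60 and 15 with these scalings and normexp, of which 32, 31 and 13 were among the 35, and 10 at 1 log2. With the slide as a block 140 and 52 probes met the rule, of which 51 and 21 were among the 164 and the 35. That block rests on the few arrays that link the slides. Leaving out each array gave 142 to 208 and 25 to 50, of which 110 to 158 and 24 to 35 were among the 164 and the 35. The offset of 50 in the normexp correction makes differences of dim probes smaller by construction. The cause of the changed counts was not tested. All 34 and 24 probes above background on all 12 arrays at 24 h kept both signs at 24 h under normexp, quantile and median scaling, but 16 and 11 still met the rule under normexp, 26 and 21 with quantile scaling and 18 and 21 with median scaling. Of all probes 121 of 164 and 32 of 35 kept both signs under normexp.

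At 3 h and 25 °C, of the 164 probes 6 rose and 4 fell with normexp, and 14 and 2 with a slide block. Of the 74 above background in at least 4 groups 12 rose and 13 fell, and of the 34 probes 8 rose and 6 fell. With the filter of at least 4 groups 6035 of 12228 tested probes were called, rises and falls not given apart. With the filter of all 12 arrays at 24 h 5391 of 10811 were called, again not given apart. Leaving out each array gave 22 to 33 that rose and 22 to 35 that fell, with medians of -0.11 to 0.25. Of the 35 probes 10 fell with the compared groups fitted alone, 7 with median scaling, 10 with quantile scaling, 5 with normexp, 1 with the slide as a block, 8 at 0.01, and 9 to 16 without each array, with medians of -0.85 to -0.55. The median with the slide as a block was -0.19. No share of falls over all tested probes is given for these settings. By limma 0 of the 35 rose with quantile scaling (0 also at an unadjusted p under 0.05), and 1 without each array in turn. CUST_7361_PI426483990 reversed to -0.021 with quantile scaling. Over all tested probes the median change was -0.15, 0.070 with median scaling and -0.058 with quantile scaling, so changes near these sizes depend on the scaling. Of all tested probes 6281 were called, against 2282 with the slide as a block and 2642 with normexp.

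In the groups tested, at 3 h and 25 °C, 0 of 3 correlations between samples of the same replicate number were over 0.1. Over all groups 20 of 84 were, and in 2 of 28 pairs of groups all 3 numbers were, neither of them a comparison of poly(I:C) with water. So few correlations cannot exclude a pairing by number, and the main fit used none. With the replicate block 28 of the 164 rose and 30 fell, and 1 of the 35 rose and 17 fell, and the counts chosen were 164 and 35. Of the values for single named probes under alternatives, 232 kept their side of the threshold and their sign, 24 lost the call, 3 gained it, 1 called value reversed, and 5 that were not called either way changed sign.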

Other observations

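The limit at 3 h and 15 °C left out 33 probes that were higher at 15 °C and lower at 25 °C at 24 h. Of these 19 were higher and 14 lower with poly(I:C) at 3 h and 15 °C. At 3 h and 25 °C 10 rose and 1 fell by limma without the slide as a block, where 17.7% of all tested probes rose and 29.3% fell. On all 12 arrays at 24 h 5 of the 33 were above background, against 80.8% of all tested probes. The limit left out 1 probe of the other direction, which fell at 3 h and 25 °C. Another 5 and 1 probes met the values but had targets other than contigs.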
